A study of Homo sapiens with 16 samples.

Results

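The cytosolic heat shock protein genes are described here in 8 established human breast cancer cell lines after TLT or the DMSO vehicle. They are 10 genes, chosen by symbol: HSPA1A, HSPA1B, HSPA8 and HSPH1 of the HSP70 and HSP110 families, the J proteins DNAJB1 and DNAJA1, the HSP90 genes HSP90AA1 and HSP90AB1, the small heat shock protein HSPB1 and the HSP70 cofactor BAG3. The deposited table listed all 10 among 20502 named genes, and all 10 passed the filter of a mean value of at least 10, as did 14544 genes in all. TLT, topsentinol L trisulfate, is a sterol with sulfate groups that was purified from a marine sponge. Each line gave 1 TLT library and 1 DMSO library after 6 h, 16 libraries in all. The TLT cells received the dose that the labels call EC75, in medium with serum, and the DMSO cells received the vehicle in the same medium. For its protein array the study treated these lines at a single concentration close to the mean of their EC75 values. For the RNA it names no concentration, so whether the same dose was used is not given in the sources used here. In the study's classes MDA-MB-468, HCC70, HCC1395 and HCC1143 are basal-like, and the claudin-low lines are MDA-MB-436, MDA-MB-231, HCC38 and MDA-MB-157. The sources used here name no repeat culture of any line, and p-values rest on the variation from line to line.

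These genes encode chaperones that hold, fold or hand over other proteins in the cytosol. HSP70 binds unfolded stretches and cycles on ATP, J proteins bring it substrates and start the cycle, and HSP110 and BAG proteins release its nucleotide. HSP90 takes over clients such as kinases and steroid receptors. When unfolded proteins accumulate, the transcription factor HSF1 binds heat shock elements in the promoters of many of these genes, and HSPA1A, HSPA1B, DNAJB1 and HSPH1 are well known to be strongly inducible. HSPA8 and HSP90AB1 are the largely constitutive forms, and cancer cells often hold high levels of chaperones.

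The heat shock element is built of GAA units in alternating orientation, and the promoter stretches below are shown because they carry its letters. The motif searched was GAANNTTC or TTCNNGAA, a pair of adjoining units. Each reads the same on both strands. RefSeq promoters on GRCh38.p14 ran from 250 bases before to 50 bases after each start. The windows were found again by exact match in GRCh37, the build of the deposited values. At least 1 motif stood in a window of 8 of the 10 genes, against 16.2% of 27305 genes with a promoter in the table. Counted by window, 9 of the 15 windows of these genes held it, against 13.5% of all 35116. A run of 3 units, which contains the shorter motif, stood in windows of 4 of the 10, HSP90AB1, HSPA8, HSP90AA1 and DNAJA1, against 0.608% of genes. The capitals mark 1 motif or 1 run of 3 units in each stretch.
HSPA1A: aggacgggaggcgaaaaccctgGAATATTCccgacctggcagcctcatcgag
HSPA1B: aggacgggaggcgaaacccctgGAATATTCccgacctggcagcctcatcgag
HSPA8: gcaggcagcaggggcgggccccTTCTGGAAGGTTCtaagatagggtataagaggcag
HSP90AA1: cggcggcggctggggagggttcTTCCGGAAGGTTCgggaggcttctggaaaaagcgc
HSP90AB1: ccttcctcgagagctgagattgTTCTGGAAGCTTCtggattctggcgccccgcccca
DNAJB1: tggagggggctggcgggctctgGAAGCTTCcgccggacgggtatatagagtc
DNAJA1: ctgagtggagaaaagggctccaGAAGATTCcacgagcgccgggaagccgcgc
HSPB1: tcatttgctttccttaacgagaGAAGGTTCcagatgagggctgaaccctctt
On GRCh37 these stretches are chr6:31783192-31783243 on the plus strand for HSPA1A and chr6:31795388-31795439 on the plus strand for HSPA1B. That of HSPA8 is chr11:122932865-122932921 on the minus strand and that of HSP90AA1 is chr14:102553435-102553491 on the minus strand. That of HSP90AB1 is chr6:44215546-44215602 on the plus strand, and that of DNAJB1 is chr19:14629227-14629278 on the minus strand. That of DNAJA1 is chr9:33025051-33025102 and that of HSPB1 is chr7:75931786-75931837, both on the plus strand. All 8 stretches lie before a start, but HSP90AB1, HSP90AA1 and DNAJB1 also have windows at other starts without a match. The stretches of these 3 genes and of HSPA8 lie within the gene spans given below. The windows of HSPA1A and HSPA1B were 92.0% identical. Among those shown, the motif nearest its start was at -47 to -40 in DNAJB1, and the farthest was at -198 to -191 in DNAJA1. The run of 3 units of DNAJA1 lay after the start, at 4 to 16, and is not printed. No match was found in the windows of HSPH1 and BAG3. These are matches of letters and no binding was measured.

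The values are RSEM gene estimates divided by the upper quartile of each library, so that 1000 stands near the 75th percentile of its genes above 0. They are not counts and not per length. From the steps between low values, the TLT libraries held an estimated 10.6 to 20.1 M reads and the DMSO libraries 12.2 to 18.8 M. The breast epithelial markers, 8 genes, summed to 2608 to 146996 in TLT and 1212 to 88146 in DMSO. The sum was higher in TLT in 8 of 8 lines, and 4 of these 8 genes passed as higher, KRT5, KRT8, KRT17 and KRT18. Among all genes tested 15% were higher, and 43.3% of those with a mean of at least that of HSPA1A were. The 4 of 8 is near the latter share and is no result about these markers. KRT8 and KRT18 had lowest values of 121 and 310 over all libraries. EPCAM, KRT5, KRT17 and KRT19 were also above 0 in every library, with lowest values of 4.73, 8.94, 1.16 and 3.95. CDH1 and KRT14 were at 0 in some. The blood markers, 6 genes, summed to 17.9 to 1547 in TLT and 11.3 to 870 in DMSO and were mostly CD14, with PTPRC, CD3E and HBB at 1.82 or less. Their sum was also higher in TLT in 8 of 8 lines, and CD14 rose by 1.58 on the log2 scale (limma adjusted p = 0.0123, higher in 8 of 8 lines). The lowest CD14 value was 11.9 in TLT and 0 in DMSO, so the size of this rise rests in part on a value at the floor. The endothelial and fibroblast markers, 6 genes, summed to 16.3 to 6437 in TLT and 14.02 to 2662 in DMSO, higher in TLT in 6 of 8 lines. Of these PDGFRB rose by 0.81 (limma adjusted p = 0.0460). Its median was only 7.74 in TLT and 5.61 in DMSO, against highest values of 4344 and 1509, so few libraries held most of its signal. The part of these marker changes in the rises of the heat shock protein genes was not tested. In these bulk libraries a change in the share of cells of one kind and a change in RNA per cell cannot be told apart.

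With TLT, 4 of the 10 genes rose and 0 fell. The test was limma's, with line as a block, on log2-transformed values to which 1 was added, at a Benjamini-Hochberg adjusted p under 0.05. DNAJA1 and DNAJB1 rose in 8 of 8 lines, and HSPH1 and HSP90AB1 rose in 7 of 8. The rises were small, from 1.23-fold in HSPH1 to 1.37-fold in DNAJA1. Among all 14544 genes 2188, or 15%, were higher and 1586, or 10.9%, were lower. Genes of high level were called higher more often. Of the 1993 genes whose mean was at least that of HSPA1A, the lowest of the 10, 863 or 43.3% were higher and 43 or 2.16% were lower. The count of 4 of 10 is near that background and is no result about these genes as a group. Their median log2 change was 0.30, against 0.19 for the genes of at least that level and 0.05 for all genes tested. Before adjustment, 6 of the 10 and 39.5% of all genes had a p under 0.05.

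**Figure D1:**
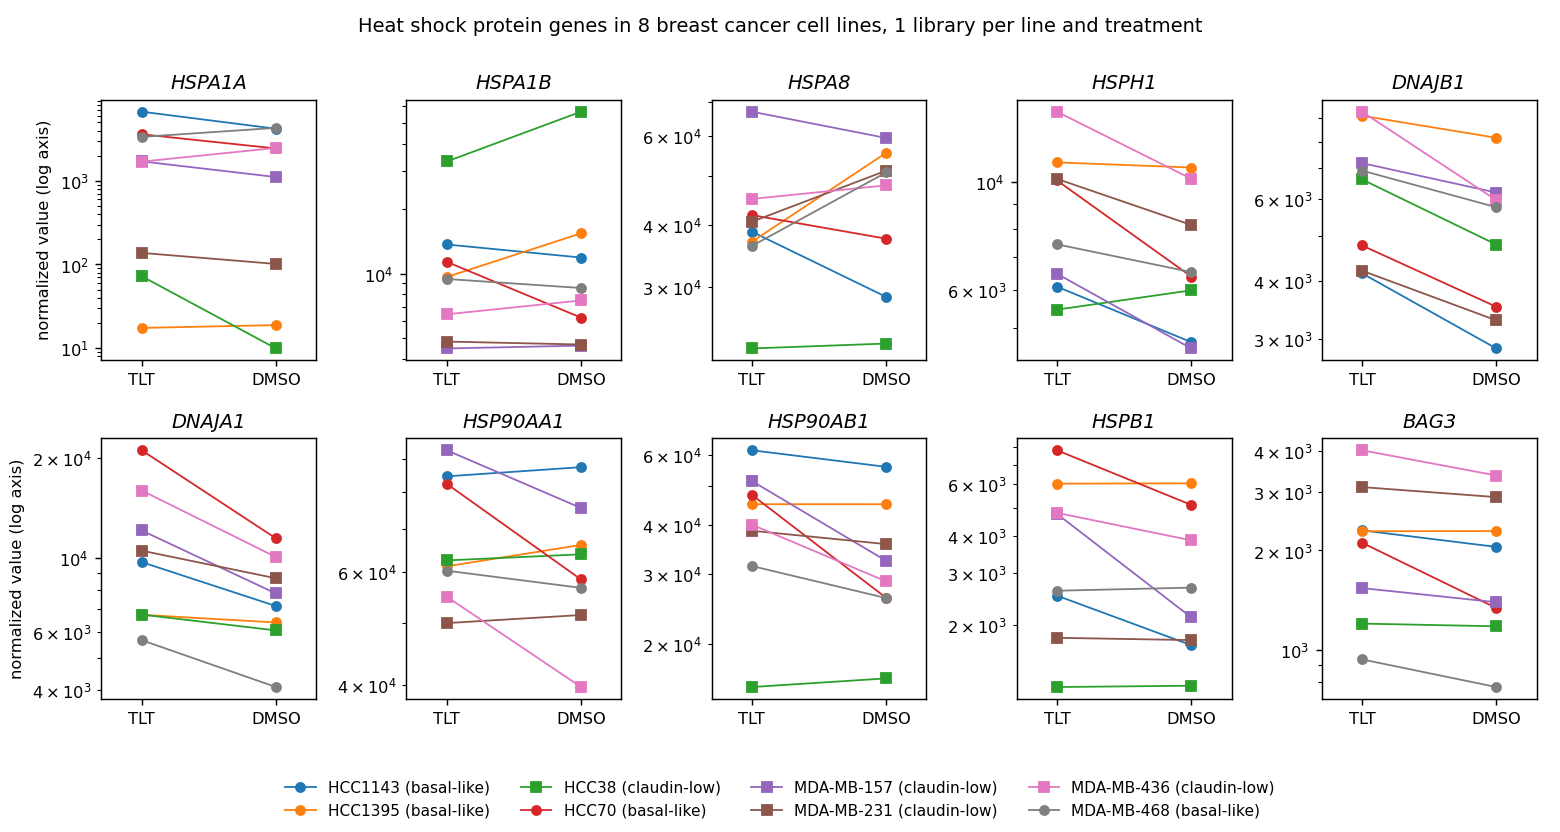
Normalized value (log axis, its range set for each gene) of the 10 genes in TLT, left, and DMSO, right, with 1 line per cell line, circles for basal-like and squares for claudin-low lines. DNAJB1 and DNAJA1 are higher in TLT in all 8 lines, while HSPA1B and HSPA8 move in both directions.

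Both J proteins rose in every line. DNAJA1, which delivers substrates to HSP70, lies on GRCh37 at chr9:33025271-33039905. Its lowest, median and highest values were 5654, 10128 and 21158 in the TLT libraries, against 4081, 7492 and 11467 in the DMSO libraries. The groups overlapped, yet the TLT value was the higher in each of the 8 lines. The log2 change averaged 0.45 ± 0.08 (SE, n = 8 lines), with a limma adjusted p of 0.00284. By line it ran from 0.08 in HCC1395 to 0.88 in HCC70, where DNAJA1 reached 21158 in TLT against 11467 in DMSO. Without MDA-MB-157 and HCC70 the gene still passed.

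DNAJB1, the inducible J protein known as HSP40, lies at chr19:14625581-14671203. In order of lowest, median and highest, it had 4151, 6777 and 9289 in TLT, against 2855, 5281 and 8156 in DMSO. Here too the groups overlapped and each line was higher in TLT. The log2 change of 0.38 ± 0.06 (SE, n = 8 lines) had a limma adjusted p of 0.00149. It ran from 0.16 in HCC1395 to 0.64 in MDA-MB-436. The SD of the change over lines was 0.17, the smallest of the 10 genes, beside 0.27 for DNAJA1. Both DNAJA1 and DNAJB1 kept an adjusted p under 0.05 when any 1 line was left out, with highest values of 0.0120 and 0.00654.

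HSPH1, the HSP110 that releases nucleotide from HSP70, lies at chr13:31709110-31736525. It had a lowest, median and highest value of 5465, 8758 and 13942 in TLT, against 4549, 6460 and 10706 in DMSO. HCC38 was the 1 line lower in TLT, at 5465 against 5988, and HCC70 had the largest rise, 10072 against 6391. The log2 change was 0.30 ± 0.08 (SE, n = 8 lines) with a limma adjusted p of 0.0177. The adjusted p was 0.0534 without MDA-MB-436 and 0.0602 without both MDA-MB-157 and HCC70.

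HSP90AB1, the constitutive HSP90, lies at chr6:44213903-44221625. The lowest, median and highest values were 15528, 42501 and 61639 in TLT, against 16329, 30557 and 55967 in DMSO. Much of its rise came from few lines. HCC70 gave 47550 in TLT against 26098 in DMSO and MDA-MB-157 gave 51537 against 32385, while HCC1395 gave 45026 against 45021 and HCC38 gave 15528 against 16329. The log2 change was 0.31 ± 0.10 (SE, n = 8 lines) with a limma adjusted p of 0.0337. Leaving out HCC70, MDA-MB-157, MDA-MB-436 or MDA-MB-468 took the adjusted p to between 0.0661 and 0.0857, and without both HCC70 and MDA-MB-157 the change was 0.15 with an adjusted p of 0.120.

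HSP90AA1, the stress-inducible HSP90, lies at chr14:102547079-102606036 and did not pass the test. Its lowest, median and highest values were 49915, 61845 and 92791 in TLT, against 39682, 61124 and 87331 in DMSO. It was higher in TLT in 4 of 8 lines, by 0.50 in HCC70, 0.47 in MDA-MB-436, 0.30 in MDA-MB-157 and 0.09 in MDA-MB-468 on the log2 scale. In the other 4 lines it lay at most 0.11 below DMSO. The mean log2 change was 0.14 ± 0.08 (SE, n = 8 lines) with a limma adjusted p of 0.193. It was 0.09 without HCC70, 0.09 without MDA-MB-436 and 0.05 without both HCC70 and MDA-MB-157. Its change followed that of HSP90AB1 over the lines, with a Pearson r of 0.91.

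HSPA8, the constitutive HSP70 known as HSC70, lies at chr11:122928197-122933938. The lowest, median and highest library had 22691, 39622 and 67067 in TLT, against 23205, 49321 and 59459 in DMSO. It was higher in TLT in 3 lines and lower in 5. The largest falls were in HCC1395, 36980 in TLT against 55545 in DMSO, and in MDA-MB-468, 36273 against 50775. The largest rise was in HCC1143, 38724 against 28732. The mean log2 change was -0.10 ± 0.10 (SE, n = 8 lines) with a limma adjusted p of 0.509. It moved to -0.03 without HCC1395, -0.04 without MDA-MB-468, -0.06 without MDA-MB-231 and -0.17 without HCC1143.

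HSPA1A and HSPA1B encode the inducible HSP70 and lie next to each other at chr6:31783320-31785723 and chr6:31795515-31798031. Their transcripts were 91.9% identical, and 75.1% of the 50-base windows of HSPA1A, the read length, also stood in HSPA1B. The division of reads between the pair is therefore uncertain. HSPA1A had a lowest, median and highest value of 17.4, 1704 and 6721 in TLT, against 9.89, 1776 and 4304 in DMSO. HSPA1B had 4483, 9543 and 33271 in TLT, against 4621, 8035 and 56747 in DMSO. Neither passed the test. The log2 change was 0.51 ± 0.27 for HSPA1A (limma adjusted p = 0.187), or 0.18 without HCC38, and -0.06 ± 0.14 for HSPA1B (limma adjusted p = 0.794; SE, n = 8 lines each).

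The lines fell apart in how the reads were divided. HSPA1A took 0.180% of the summed value in TLT and 0.122% in DMSO in HCC1395, 0.217% and 0.0174% in HCC38, and 2.77% and 2.12% in MDA-MB-231. In the other 5 lines it took 20.8% to 33.0% in TLT and 19.4% to 33.4% in DMSO. The share thus followed the line far more than the treatment. HCC38 also had by far the highest HSPA1B, 33271 in TLT and 56747 in DMSO. The sum of both genes changed by -0.06 ± 0.14 on the log2 scale (SE, n = 8 lines, limma adjusted p = 0.796), higher in TLT in 4 lines and lower in 4. It was 14950 in TLT against 8678 in DMSO in HCC70, and 33343 against 56757 in HCC38. The sign of this mean turned when HCC38 or HCC1395 was left out, with values of 0.046 and 0.033, and it was -0.22 without both MDA-MB-157 and HCC70.

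**Figure D2:**
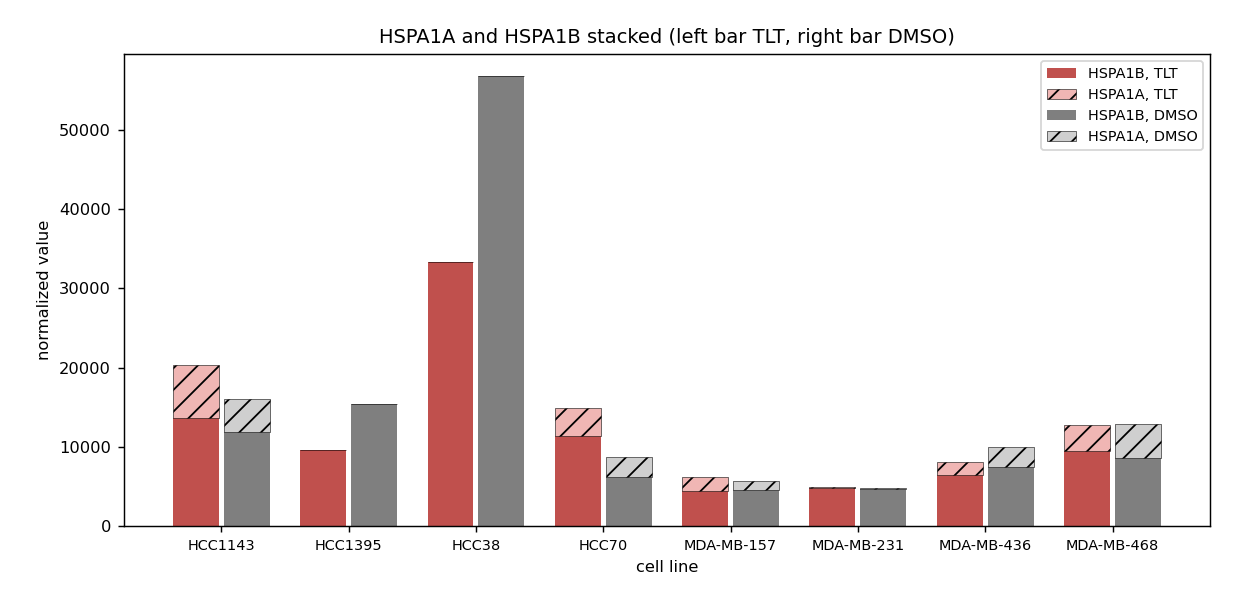
Normalized value of HSPA1B (solid) with HSPA1A (hatched) stacked on it, by cell line, TLT left and DMSO right, 1 library per bar. HSPA1A is scarcely visible in HCC1395, HCC38 and MDA-MB-231, and the sum is higher in TLT in 4 of the 8 lines.

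HSPB1, the small heat shock protein HSP27, which holds unfolded proteins without ATP, lies at chr7:75931990-75933612. From lowest through median to highest, it had 1235, 3693 and 7828 in TLT, against 1248, 2405 and 6048 in DMSO. It was higher in TLT in 5 of 8 lines. MDA-MB-157 was the most changed line, at 4767 in TLT against 2127 in DMSO, followed by HCC70 and HCC1143. The other lines showed little change apart from MDA-MB-436, at 4806 against 3878. The log2 change was 0.33 ± 0.12 (SE, n = 8 lines) with a limma adjusted p of 0.0628. It was 0.21 without MDA-MB-157 and 0.14 without both MDA-MB-157 and HCC70.

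BAG3, a nucleotide exchange factor that ties HSP70 to HSPB proteins and to autophagy, lies at chr10:121410892-121437331. Its lowest, median and highest values were 937, 2199 and 4017 in TLT, against 773, 1723 and 3369 in DMSO. It was higher in 7 of 8 lines, and in HCC1395 it was almost equal, 2286 in TLT against 2289 in DMSO. HCC70 stood apart at 2111 in TLT against 1340 in DMSO. The log2 change was 0.20 ± 0.08 (SE, n = 8 lines) with a limma adjusted p of 0.0652.

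**Figure D3:**
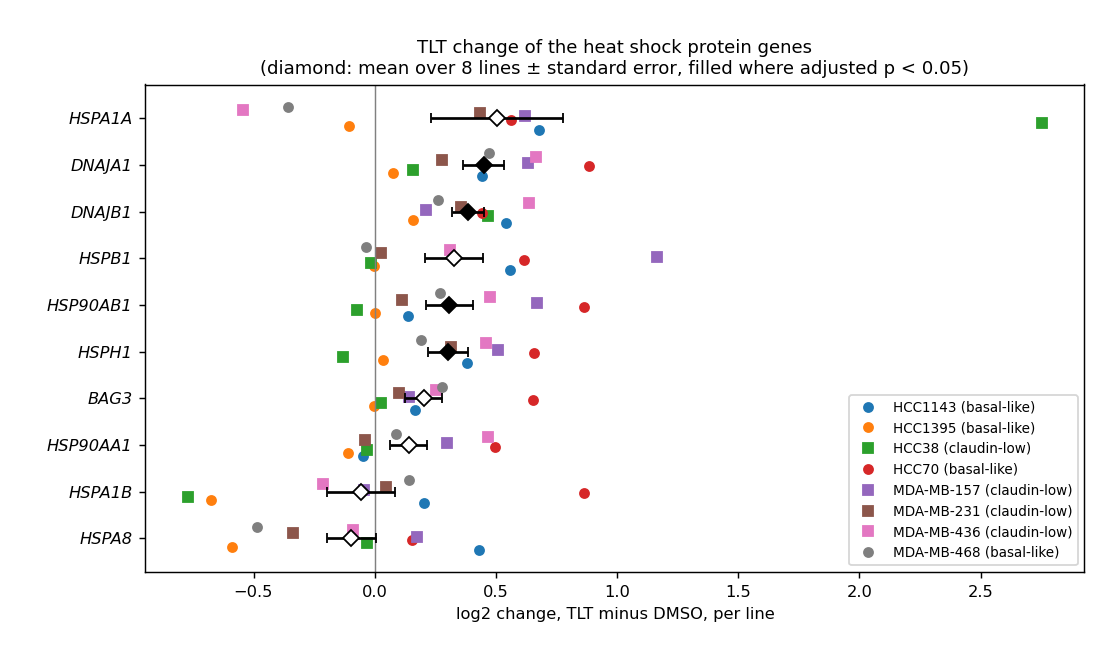
Log2 change of each gene, TLT minus DMSO, with 1 point per cell line (circles basal-like, squares claudin-low) and a diamond for the mean over 8 lines ± SE, filled where the adjusted p was under 0.05. The diamonds of DNAJA1, DNAJB1, HSP90AB1 and HSPH1 are filled, and HSPA1A in HCC38, at 2.75, lies far from the other lines.

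By line, the median change of the 10 genes was highest in HCC70, at 0.63 on the log2 scale. It was 0.40 in HCC1143, 0.40 in MDA-MB-157 and 0.38 in MDA-MB-436. In MDA-MB-468 it was 0.16 and in MDA-MB-231 it was 0.11. HCC1395 and HCC38 stood at -0.00 and -0.02. All 10 genes were higher in TLT in HCC70, and 4 of 10 in HCC1395 and in HCC38. The lines with high medians were in part those in which the genes of at least the level of HSPA1A, a set that includes the 10, moved too. The median of the genes of at least the level of HSPA1A was 0.33 in HCC70, 0.39 in MDA-MB-157 and 0.28 in MDA-MB-436, but 0.13 in HCC1143. It was 0.05 in MDA-MB-231, 0.20 in MDA-MB-468, 0.09 in HCC1395 and 0.07 in HCC38. In MDA-MB-468, HCC1395 and HCC38 the median of the 10 genes lay below it. The summed value of the whole library was also higher in TLT than in DMSO, 1.26-fold in MDA-MB-157, 1.21-fold in HCC70 and 1.03-fold to 1.16-fold in the other 6 lines. The part of this in the changes of the 10 genes was not tested. Without MDA-MB-157 and HCC70, chosen after seeing the data, 2 of the 10 genes, DNAJA1 and DNAJB1, passed. That choice also removes the line with the highest median of the 10 genes, so it cannot tell scaling from response. With TMM scaling 4 of the 10 passed.

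Lane 1 of the sequencer held the MDA-MB lines and lane 2 the HCC lines, each line with both of its treatments. In the 4 MDA-MB lines the log2 change was 0.51 for DNAJA1, 0.37 for DNAJB1, 0.37 for HSPH1 and 0.38 for HSP90AB1. In the 4 HCC lines it was 0.39, 0.40, 0.23 and 0.23 in the same order of genes. All 4 rises had the same direction in both lanes. DNAJA1 and HSPH1 passed in the MDA-MB lines alone, where 1377 of 14478 genes passed. In the HCC lines alone 170 of 14118 genes and 0 of the 10 passed. At so low a share, the 0 of 10 does not set these genes apart between lanes.

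The response of claudin-low lines was set against that of basal-like lines in an interaction. No gene passed by limma (0% of 14544). Before adjustment 272 genes, or 1.87%, and 0 of the 10 had a limma p under 0.05. With so small a share, 0 of 10 is no result about these genes. The claudin-low change minus the basal-like change was -0.03 ± 0.18 (SE) for DNAJA1, 0.07 ± 0.14 for DNAJB1, -0.03 ± 0.17 for HSPH1 and -0.02 ± 0.20 for HSP90AB1. The widest differences were 0.62 ± 0.54 for HSPA1A and -0.38 ± 0.27 for HSPA1B, the pair whose reads are divided uncertainly. A missed threshold does not show that the subtypes respond alike.

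The genes also differed in how much they varied between lines apart from treatment. On the log2 scale the SD over the 8 lines was 3.12 in TLT and 3.55 in DMSO for HSPA1A, 0.93 and 1.19 for HSPA1B, and 0.92 and 0.81 for HSPB1. It was smallest for HSP90AA1, at 0.32 in TLT and 0.35 in DMSO. In DMSO the highest line stood above the lowest by 2.20-fold for HSP90AA1, 2.86-fold for DNAJB1 and 4.36-fold for BAG3. For DNAJA1, DNAJB1, HSPH1 and HSP90AB1 the spread between lines was larger than the TLT change.

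Divided by the length of the GENCODE transcript, the mean level per kilobase was 21231 ± 4862 in TLT and 19315 ± 4526 in DMSO for HSP90AA1 (SD, n = 8 lines each, as for all levels here). HSPA8 had 18166 ± 5474 in TLT and 19560 ± 5764 in DMSO, and HSP90AB1 had 16206 ± 5420 in TLT and 13028 ± 4841 in DMSO. The spreads between lines of these 3 neighbours overlapped. Such a spread does not set genes against each other within a line, and a difference within lines was not tested. HSPB1, at 5087 ± 2940 in TLT and 3956 ± 2259 in DMSO, HSPA1B, at 4626 ± 3695 in TLT and 5743 ± 6945 in DMSO, and DNAJA1, at 4780 ± 2281 in TLT and 3328 ± 1013 in DMSO, came next and overlapped. DNAJB1 had 2914 ± 908 in TLT and 2261 ± 804 in DMSO, and HSPH1 had 1683 ± 559 in TLT and 1363 ± 443 in DMSO. HSPA1A, at 902 ± 968 in TLT and 764 ± 749 in DMSO, and BAG3, at 854 ± 395 in TLT and 747 ± 352 in DMSO, were lowest. Of the 50-base windows, 19.1% in HSP90AA1, 19.7% in HSP90AB1, 16.8% in HSPA8 and 13.5% in HSPB1 also stood in other annotated genes. The share was 2.60% in DNAJB1 and 1.54% in DNAJA1, and 0% in HSPH1 and BAG3. The gene sharing the most windows was HSP90AA2P for HSP90AA1, HSP90AB3P for HSP90AB1, HSPA8P1 for HSPA8 and HSPB1P1 for HSPB1.

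Over the 8 lines the changes of most pairs of the 10 genes went together. The Pearson r was above 0 for 38 of 45 pairs, with a median of 0.52 and a range of -0.44 to 0.95. The pairs share libraries and their scaling, so these are descriptions. DNAJA1 went closest with HSP90AB1 (r = 0.95), HSP90AA1 (r = 0.92) and HSPH1 (r = 0.90). DNAJB1 went apart from these, with r of 0.34 to DNAJA1, 0.24 to HSPH1 and 0.08 to HSP90AB1. The lowest r was that of HSPA1A and HSPH1. Among 11259 other well-measured genes, those whose change over the 8 lines was most like that of DNAJB1 were FAM46B (r = 0.94), EIF3J (r = 0.91), CHCHD7 (r = 0.91), TGFB2 (r = 0.88) and EIF5 (r = 0.88). Of these TGFB2 rose with TLT, by 0.68 on the log2 scale (limma adjusted p = 0.00215), and the other 4 did not pass. These genes were picked as the highest of 11259 r values over only 8 lines. Among so many genes an r of this size can arise by chance, and a link to DNAJB1 was not tested.

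The heat shock factors came first among the related genes. Beside the counts of these groups, 15% of all genes tested were higher and 10.9% lower. Among genes of at least the level of HSPA1A the shares were 43.3% and 2.16%. A count near these shares is no result about its group. HSF1, the factor that drives the heat shock response, rose in 8 of 8 lines by 0.33 ± 0.08 on the log2 scale (SE, limma adjusted p = 0.00873). It had a lowest, median and highest value of 1184, 2170 and 3375 in TLT, against 844, 1664 and 2967 in DMSO. HSBP1, which binds HSF1 and holds it back, rose by 0.20 (limma adjusted p = 0.0485). HSF2 gave -0.06 (limma adjusted p = 0.693). In all 2 of 5 rose and 0 fell, with a median of 0.14, and 1 of 5 rose when any line other than MDA-MB-231 was left out.

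Of the other HSP70 and HSP110 genes, 2 of 7 tested rose and 3 fell (15% and 10.9% of all genes), with a median of -0.29. HSPA14, a ribosome-bound HSP70, rose by 0.32 and HSPA4, an HSP110, by 0.28, both in 8 of 8 lines. HSPA2 fell by 0.41 on the log2 scale. HSPA6, a strictly stress-induced HSP70, had a lowest, median and highest value of 6.36, 36.6 and 70.4 in TLT, against 5.67, 50.7 and 134 in DMSO. It was thus low in both groups, with a log2 change of -0.47 ± 0.22 (SE, limma adjusted p = 0.131). The 3 fallers were lower in 7 or 8 of the 8 lines, but their calls depended on which lines were included: 0 passed without HCC70, MDA-MB-436 or MDA-MB-468, 1 without HCC1143, HCC1395 or MDA-MB-231, and 2 without HCC38 or MDA-MB-157.

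Of 13 other cytosolic J proteins 4 rose and 1 fell (15% and 10.9% of all genes), with a median of 0.04. DNAJB6, which suppresses aggregation, rose in 8 of 8 lines by 0.63 ± 0.07 (SE, limma adjusted p = 0.000108), more than DNAJB1 or DNAJA1 on the log2 scale. Its lowest, median and highest values were 2764, 5332 and 9190 in TLT, against 1796, 3255 and 6213 in DMSO. DNAJC7 rose by 0.33. DNAJB5 fell in 8 of 8 lines by 1.42 on the log2 scale (limma adjusted p = 0.000583), with a median of 73.0 in TLT against 168 in DMSO. The fallers numbered 2 when HCC38 was left out.

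Of 9 HSP70 cofactors 3 rose and 1 fell (15% and 10.9% of all genes), with a median of 0.03. BAG6, which guides misplaced proteins and is listed under its older symbol BAT3, rose by 0.24, and ST13, which links HSP70 to HSP90, by 0.20. BAG2, which inhibits the ubiquitin ligase CHIP, fell in 8 of 8 lines by 0.49 on the log2 scale. The risers numbered 0 without MDA-MB-436 or MDA-MB-468, and 1 without HCC1143, HCC1395, HCC70 or MDA-MB-157. The fallers numbered 2 without HCC38. Of 15 HSP90 co-chaperones 6 rose and 2 fell, with a median of 0.22. FKBP4, which serves steroid receptors, rose by 0.37, AHSA1, which speeds the ATPase of HSP90, by 0.34, and PTGES3, the p23 protein, by 0.32, each in 8 of 8 lines. The fallers numbered 0 without HCC70 and 1 without MDA-MB-436 or MDA-MB-468.

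The chaperonin TRiC and prefoldin, which fold actin and tubulin, had 12 of 14 genes higher and 0 lower, with a median of 0.28. Over all genes 15% were higher, and among genes of at least the level of HSPA1A 43.3% were, with a median of 0.19. CCT2 rose by 0.39, CCT8 by 0.36 and PFDN1 by 0.34, each in 8 of 8 lines. VBP1, at 0.16, and PFDN6, at -0.03, did not pass. Between 8 and 12 rose when any line was left out. Of 9 mitochondrial chaperones 3 rose and 0 fell, with a median of 0.25: GRPEL1 by 0.38, HSPD1 by 0.34 and HSPE1 by 0.26. Of 12 chaperones of the endoplasmic reticulum 4 rose and 0 fell, with a median of 0.16. DNAJB9 rose by 0.55, DNAJB11 by 0.26 and CANX by 0.24, while HSPA5, the chief HSP70 there, gave 0.03 (limma adjusted p = 0.908). This count went from 0, without HCC70, MDA-MB-436 or MDA-MB-468, to 8, without HCC38. It was 2 without HCC1143, HCC1395 or MDA-MB-231. Of the other small heat shock proteins 4 of 9 passed the filter, and 0 rose or fell by limma, with a median of 0.34. There 1 passed when HCC38 or MDA-MB-436 was left out.

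**Figure D4:**
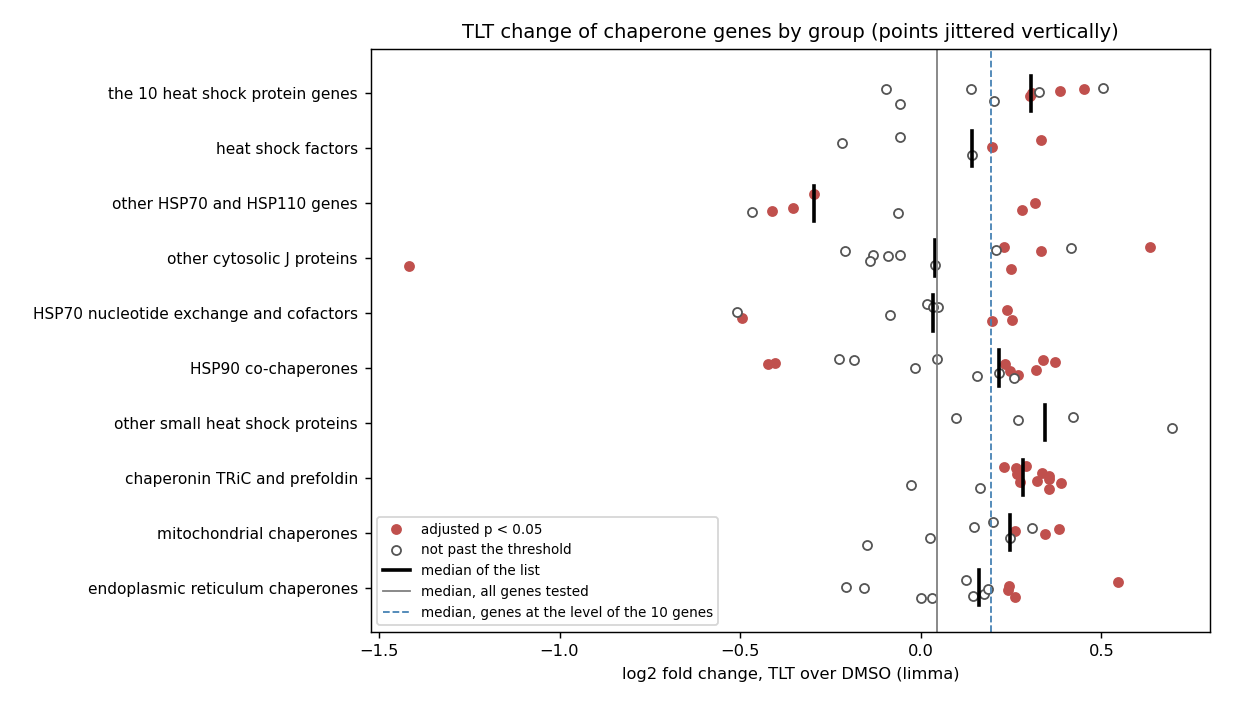
Log2 fold change, TLT over DMSO, of each tested chaperone gene by group, filled where the adjusted p was under 0.05, with the median of each group as a bar. The TRiC and prefoldin group, with 12 of 14 filled, has a median of 0.28, and the 10 heat shock protein genes have 0.30. The median is 0.19 for genes of at least the level of HSPA1A, the lowest of the 10 (dashed), and 0.05 for all genes (grey).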

How the data were processed

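RNA of 16 libraries from 8 cell lines was sequenced with 50-cycle single reads. The authors used MapSplice for alignment and RSEM for quantification, with hg19 as the build, and the deposited unit is a signal normalized to the upper quartile of each library. The submitters' processing notes also name DESeq2 1.4.5, which was not used here. A second sheet with the same values and a sheet of the authors' fold changes were not used. Of 20531 rows, 29 without a gene name, with 0.0398% of the signal, were left out.

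RSEM divides reads that map to several genes. Among values under 60, 83.1% to 84.9% came to whole reads, within 0.01 reads, once divided by the estimated value of 1 read, so a count test was not applied. Genes with a mean of at least 10 were kept. On the scale of log2(value + 1), limma 3.58.1 (R 4.3.3) modelled treatment and cell line (trend and robust options), and p-values were adjusted after Benjamini-Hochberg over 14544 genes, at 0.05. A fold change on this scale understates that of genes with low values. The labels name the line of each library, which pairs the samples. Once treatment means were subtracted, the TLT and DMSO libraries of the same line had an r of 0.900 to 0.954, against at most 0.296 with another line. The subtype difference was an interaction, with each line's subtype taken from the study's description. The fit was tested on simulated data.

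The 10 genes, the lists and the tests were chosen with earlier results of these data known. Named genes were the 10, up to 3 called genes of smallest p from each list, HSF1, HSF2 and HSPA6, and the 5 genes most like DNAJB1 in change. Promoters are from RefSeq on GRCh38.p14, and gene positions and transcript lengths from GENCODE on GRCh37. Python 3.11.15 with pandas 2.3.3 and numpy 2.4.6 was used. Alternatives were no block, TMM scaling, other filters, pseudocounts and thresholds, no trend, each lane alone, each line left out and, chosen after seeing the data, MDA-MB-157 and HCC70 left out.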

Additional observations from a re-analysis of the deposited data

Results flagged for a closer look

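Of 40 genes examined over the 8 lines, 4 had 1 line far from the others, where chance gives about 1 in 20. HSPA1A changed by 2.75 on the log2 scale in HCC38, from values of 72.4 in TLT and 9.89 in DMSO, against at most 0.68 in any other line. Without HCC38 its mean change was 0.18. BAG3 changed by 0.66 in HCC70, at 2111 in TLT and 1340 in DMSO, against at most 0.28 elsewhere. PFDN1 changed by 0.12 in HCC70, at 681 in TLT and 625 in DMSO, against at least 0.28 elsewhere. DNAJB9 changed by -0.82 in MDA-MB-157, at 751 in TLT and 1330 in DMSO, against at least 0.21 elsewhere.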

How the results depend on the processing

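Over 20 alternatives DNAJA1 kept its call in 18 and DNAJB1 in 17, while HSPH1 kept it in 14 and HSP90AB1 in 10. Their log2 changes stayed above 0 in all 20. A fit with no replicate block called 7 genes (7 higher, 0 lower) and 0 of the 10. At an adjusted p under 0.01 there were 1564 (880 higher, 684 lower) and 2 of the 10. At 0.10 HSPB1 and BAG3 passed too. Without trend and robust moderation 2 of the 10 passed. The MDA-MB lines alone gave 1377 genes (723 higher, 654 lower) and 2 of the 10, and the HCC lines alone gave 170 (124 higher, 46 lower) and 0 of the 10. Without MDA-MB-157 and HCC70, chosen after seeing the data, 2 of the 10 passed. With 1 line left out, 2421 (without MDA-MB-436) to 3898 genes were called, 1362 to 2282 higher and 1059 to 1717 lower, and 2 to 4 of the 10 rose. With 1 line left out, the summed HSPA1A and HSPA1B ranged from -0.18 to 0.046 and turned to 0.033 without HCC1395, and HSPA1B ranged from -0.19 to 0.045, with 0.032 without HCC1395 and 0.045 without HCC38. Without both MDA-MB-157 and HCC70 they were -0.22 and -0.21. TMM scaling gave 3744 genes (1959 higher, 1785 lower) and 4 of the 10, with the median of all genes at 0.02. Under it 1 heat shock factor gene rose, 2 J proteins fell and 2 chaperones of the endoplasmic reticulum rose. The subtype difference had 0 genes called under TMM and with each line left out. The cause of these changes was not tested. The block leaves 1 library per treatment and line, which limits every value for a single line to a difference without replicate error.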
